A study of Homo sapiens with 4 samples.

Results

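The FOS and JUN genes encode the subunits of the transcription factor AP-1, and together with EGR1, IER2 and IER3 they belong to the immediate early genes, which are transcribed within minutes of a growth or stress signal. The 10 genes described here (FOS, FOSB, FOSL1, FOSL2, JUN, JUNB, JUND, EGR1, IER2 and IER3) were chosen by name, with earlier results of these data known. Each was found as 1 row among the 18806 gene symbols of the expression table. Expression was measured by RNA-seq in the human hepatocellular carcinoma line Huh7. All cells descended from 1 clone selected for stable Cas9 expression and were then transduced with a lentiviral guide and selected with hygromycin B. The sgNS group carried a non-targeting guide, and its genotype is given as WT. The second group carried a METTL16 guide, which the study calls a KO and the labels a knockdown. It is called METTL16 KO here. Each group had 2 biological replicates, so the comparison rests on 4 libraries of 1 Cas9 clone. The study's text does not state how many METTL16 guides the RNA-seq used, and it may have been only 1.

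AP-1 is a dimer held together by leucine zippers. JUN proteins can pair with each other or with FOS proteins, whereas FOS proteins need a JUN or another partner to bind DNA. FOS, FOSB and JUN are strong activators, JUNB is a weaker one, and FOSL1 and FOSL2 lack a strong activating region. In the liver, JUN is known for its part in regeneration and in the survival of tumour cells. Immediate early mRNAs are typically short lived, and many carry AU-rich elements in their 3′ UTR that recruit decay factors.

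The promoters are shown first, because transcription of these genes is known to start from serum response elements, which bind SRF, and from cAMP response elements (CRE), which bind CREB and ATF proteins. For 8 of the 10 genes a promoter was at hand in RefSeq on GRCh38.p14, and those of FOSL1 and IER3 are named only. The window was the 250 bases before the annotated start, which need not be the start used in Huh7 cells. Sequence further upstream was not searched, so a gene without a match here, FOS included, may hold the element there. Both strands were searched for the CRE core TGACGT, the full CRE TGACGTCA, which contains the core, the TRE (TGAGTCA), the JUN-type TRE TGACATCA and the CArG box, the SRF sequence. The CRE core was found in 5 of the 8 windows and in 7.1% of all 35116 promoters. These 35116 were not limited to genes expressed in Huh7 cells. The following 5 promoters are those with the core, printed 5′ to 3′ on the gene's strand with matches in capitals.
FOS, chr14:75278578-75278827, plus strand: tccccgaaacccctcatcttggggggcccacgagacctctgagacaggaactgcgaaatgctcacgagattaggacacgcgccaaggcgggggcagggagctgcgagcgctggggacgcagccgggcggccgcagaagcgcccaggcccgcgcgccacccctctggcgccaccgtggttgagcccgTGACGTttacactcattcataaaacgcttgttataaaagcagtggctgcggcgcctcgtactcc
FOSB, chr19:45467746-45467995, plus strand: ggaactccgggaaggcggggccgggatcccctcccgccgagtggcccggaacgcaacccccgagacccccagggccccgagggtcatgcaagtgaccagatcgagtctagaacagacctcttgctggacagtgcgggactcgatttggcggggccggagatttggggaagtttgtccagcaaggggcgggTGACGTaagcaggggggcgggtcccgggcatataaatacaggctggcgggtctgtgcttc
FOSL2, chr2:28392608-28392857, plus strand: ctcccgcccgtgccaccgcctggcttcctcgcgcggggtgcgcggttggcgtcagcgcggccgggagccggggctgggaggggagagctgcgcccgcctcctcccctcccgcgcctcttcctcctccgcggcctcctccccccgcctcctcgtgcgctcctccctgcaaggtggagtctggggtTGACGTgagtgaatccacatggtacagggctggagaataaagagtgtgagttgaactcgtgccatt
JUND, chr19:18281623-18281872, minus strand: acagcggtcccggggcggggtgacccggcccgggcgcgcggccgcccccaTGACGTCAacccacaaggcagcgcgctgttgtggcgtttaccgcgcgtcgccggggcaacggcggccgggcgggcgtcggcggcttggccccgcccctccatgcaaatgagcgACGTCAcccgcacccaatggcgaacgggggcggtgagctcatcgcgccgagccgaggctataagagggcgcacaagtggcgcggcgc
EGR1, chr5:138465229-138465478, plus strand: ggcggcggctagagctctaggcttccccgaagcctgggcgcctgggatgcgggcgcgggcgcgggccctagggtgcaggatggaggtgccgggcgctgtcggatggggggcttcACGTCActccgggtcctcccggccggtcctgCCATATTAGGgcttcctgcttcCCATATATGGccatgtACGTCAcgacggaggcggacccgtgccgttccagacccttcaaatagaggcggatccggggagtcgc
In FOS, FOSB and FOSL2 the core began 64, 60 and 66 bases before the RefSeq start. For FOSL2 that start lies 410 bases inside the gene as GENCODE 44 bounds it, so that its window is upstream of the RefSeq start only, whereas the RefSeq start of the other 7 genes was at most 2 bases from the GENCODE one. JUND carried the full CRE from 200 to 193 bases before its start, a match held by 1.65% of all promoters, and another core from 87 to 82 bases before it. EGR1 held the core in 2 places, and between these it held the CArG box in 2 places, CCATATTAGG and CCATATATGG, a match found in 1.16% of all promoters. JUN held the JUN-type TRE, which 2.37% of all promoters held, from 67 to 60 bases before its start. The TRE itself, held by 4.2% of all promoters, was in none of the 8 windows, and those of JUNB and IER2 held none of the letters searched. A match is a description of the letters and not a bound site. As described next, the promoters with the core belonged to 3 genes that rose and 2 that fell.

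The TPM values of the deposited table, which give each gene's share of the RNA per length and sum to 1000000 in each library, were compared by limma on the scale log2(TPM + 0.1), with a trend of variance on mean, over the 11971 genes that averaged 1 TPM or more. Benjamini-Hochberg adjustment ran over all of these genes, and a gene is said to rise or fall at an adjusted p under 0.05. Fold changes on this scale understate the change of genes with low values. Of the 10 genes, 9 were tested, and FOSL1 was not, because its mean over the 4 libraries was 0.475 TPM. Upon METTL16 KO, 4 of the 9 rose (FOS, FOSB, FOSL2 and JUNB) and 5 fell (JUN, JUND, EGR1, IER2 and IER3). These counts stand beside a background in which 50.1% of all genes tested rose and 25.6% fell, so that a call alone sets none of the 9 apart from the other genes. With a log2 fold change of at least 1 as a further requirement, 3 of the 9 rose (FOSB, FOSL2 and JUNB), against 7.7% of all genes, and 0 fell, against 3.77%. Since the genes were chosen with earlier results of these data known, these counts describe them and are no test. The groups did not overlap in any of the 9, with METTL16 KO higher in 4 and lower in 5, as was the case for 56.8% and 30.7% of all genes. The libraries within a group had a Pearson's r of 0.997 across genes. For 1 gene at a time, exact permutation of 2 against 2 libraries gives no two-sided p smaller than 0.33, and the p-values therefore rest on the spread that limma shares across genes.

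METTL16 itself, the targeted gene, stood at 26.3 and 25.1 TPM in the sgNS libraries against 17.6 and 18.8 TPM in those of METTL16 KO. Its transcript was thus lower and not absent, and its protein is not measured here. The study reports separate Western blots for the efficiency of the KO in Huh7 cells. From 11723 to 12074 genes were listed at 1 TPM or more in a library. The 100 most abundant genes took 32.6% and 32.8% of the total in sgNS and 28.6% and 28.7% in METTL16 KO, and across all genes tested the log2 fold changes had a median of 0.16. After each library was divided by its median ratio to the geometric mean, that median was -0.0016, and then 36.4% of all genes tested rose and 36.5% fell. The 9 genes kept their direction and their call under this scaling, and their scaled values are given below. Read counts cannot be had from TPM, and library depth and counting error are therefore unknown. Of the 9 hepatocyte and hepatoma markers looked for, all 9 had a mean of at least 217.9 TPM. In the deposited values 7 rose and 2 fell (TF at -0.43 and APOB at -0.17 on the log2 scale), beside 50.1% and 25.6% of all genes tested. With median-ratio scaling 6 rose and 2 fell, and SERPINA1, at 0.0044, did not pass. The 9 summed to 17811 and 17897 TPM in sgNS and to 29946 and 30366 TPM in METTL16 KO. Most of the rise in this sum was AFP, with a mean of 1765 TPM in sgNS and 10292 TPM in METTL16 KO. The 10 markers of blood, endothelial and stellate cells summed to 10.1 to 11.2 TPM in sgNS and 14.2 to 15.9 TPM in METTL16 KO, with PTPRC at 0.15 to 0.48 TPM and CDH5 at 0 to 0.01 TPM. Of the 3 of these markers tested, CD68 rose (3.4 and 2.72 against 8.86 and 8.57 TPM), and PECAM1 and PDGFRB fell, by 0.75 and 0.67 on the log2 scale. PDGFRB averaged 1.495 TPM in sgNS and 0.905 TPM in METTL16 KO. It passed the filter of 1 TPM only through sgNS, so that its direction was set by the filter. The part of these markers in the results was not tested, and in bulk RNA fewer expressing cells and less RNA per cell cannot be told apart.

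**Figure D1:**
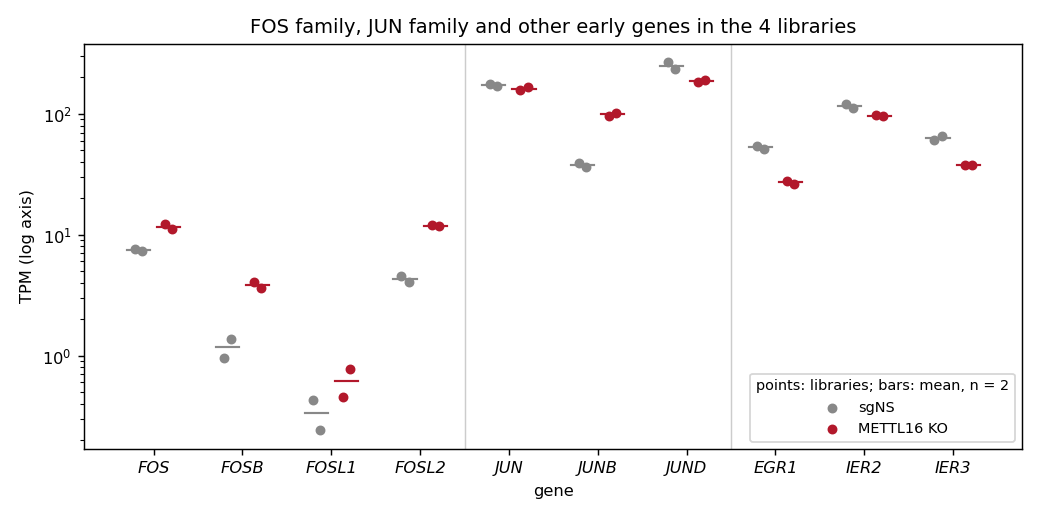
TPM of the 10 genes on a log axis, with a point for each library, grey for sgNS and red for METTL16 KO, and a bar at the mean of each group (n = 2). FOS, FOSB, FOSL2 and JUNB lay higher in both METTL16 KO libraries, and JUN, JUND, EGR1, IER2 and IER3 lay lower.

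The FOS family was expressed at low levels, and its 3 tested members rose, as did 50.1% of all genes tested. FOS, the founding member and the best known rapid responder, lies on the plus strand of chromosome 14 (75278826 to 75282230, GRCh38, GENCODE 44). Its level was 7.63 and 7.28 TPM in the sgNS libraries and 12.2 and 11.1 TPM in the METTL16 KO libraries. The lower METTL16 KO library was above the higher sgNS library, and the ratio of the means was 1.56. On the log2 scale FOS rose by 0.64 (standard error 0.085, adjusted p = 4.3e-05 from limma), or by 0.47 after median-ratio scaling.
FOSB, whose product is known for lasting forms in stimulated cells, lies on the plus strand of chromosome 19 (45467995 to 45475179). The sgNS libraries held 0.95 and 1.38 TPM of FOSB and the METTL16 KO libraries 4.08 and 3.62 TPM, which put both METTL16 KO libraries well above both sgNS libraries. The log2 fold change of FOSB was 1.66 (standard error 0.19, 95% interval 1.23 to 2.09, adjusted p = 1.5e-05 from limma) and 1.50 after median-ratio scaling. This was the largest change among the 9 genes and also the one with the widest interval, and FOSB had the lowest level of the 9.
FOSL2, which encodes Fra-2, an AP-1 subunit without a strong activating region, lies on the plus strand of chromosome 2 (28392448 to 28417317). Its values went from 4.58 and 4.04 TPM without the METTL16 guide to 11.9 and 11.8 TPM with it, 2 tight and separate pairs. The ratio of means was 2.75 and the log2 fold change 1.44 (standard error 0.095, adjusted p = 1.7e-07 from limma), or 1.28 after scaling. FOSL2 was thus among the higher changes of the whole table, at percentile 96.6 of all genes tested, with FOSB at percentile 97.6 and FOS at percentile 82.7.
FOSL1, which encodes Fra-1 and is itself known as a target of AP-1, lies on the minus strand of chromosome 11 (65892049 to 65900573). Values of FOSL1 were 0.43 and 0.24 TPM in the sgNS libraries against 0.45 and 0.78 TPM upon METTL16 KO, so that the groups were separated by only the distance from 0.43 to 0.45 TPM. When the filter was lifted to take in all 16350 genes above 0 in at least 1 library, FOSL1 was at a log2 fold change of 0.71 (standard error 0.35) and missed the threshold (adjusted p = 0.15 from limma).

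In the JUN family the members moved in different directions. JUNB, which pairs with FOS proteins and is often described as the counterpart of JUN in the control of growth, lies on the plus strand of chromosome 19 (12791486 to 12793315). Its level was 38.9 and 36.2 TPM in the sgNS libraries and 96.2 and 101.6 TPM in the METTL16 KO libraries. The groups were far apart relative to their spread, at 37.6 ± 1.9 and 98.9 ± 3.8 TPM (SD, n = 2 per group). JUNB rose by 1.39 on the log2 scale (standard error 0.051) and by 1.23 after median-ratio scaling, and its adjusted p from limma, 2.0e-09, was the smallest among the 9 genes.
JUND, the most abundant of the 10 genes and the JUN protein that resting cells are known to keep, lies on the minus strand of chromosome 19 (18279694 to 18281622). The sgNS libraries held 266.7 and 233.7 TPM of JUND, and the METTL16 KO libraries 183.9 and 191.2 TPM. The sgNS libraries differed from each other by more than the METTL16 KO libraries did, and still both lay above them. The log2 fold change of JUND was -0.41 (standard error 0.054, adjusted p = 3.7e-05 from limma) and -0.58 after scaling.
JUN, the strongest activator of the family, lies on the minus strand of chromosome 1 (58776845 to 58784048). JUN read 177.5 and 170.1 TPM in the sgNS libraries and 157.4 and 166.3 TPM in the METTL16 KO libraries, so that the nearest libraries of the groups were separated by less than the METTL16 KO libraries were from each other. The log2 fold change of JUN was -0.10 (standard error 0.040, 95% interval -0.19 to -0.014, adjusted p = 0.038 from limma). This call was lost when sgNS replicate 1 was left out (log2 fold change -0.072, adjusted p = 0.15 from limma), when METTL16 KO replicate 1 was left out (-0.064, adjusted p = 0.32) and when METTL16 KO replicate 2 was left out (-0.14, adjusted p = 0.052). After median-ratio scaling JUN was at -0.27 with an adjusted p of 1.7e-04 from limma.

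**Figure D2:**
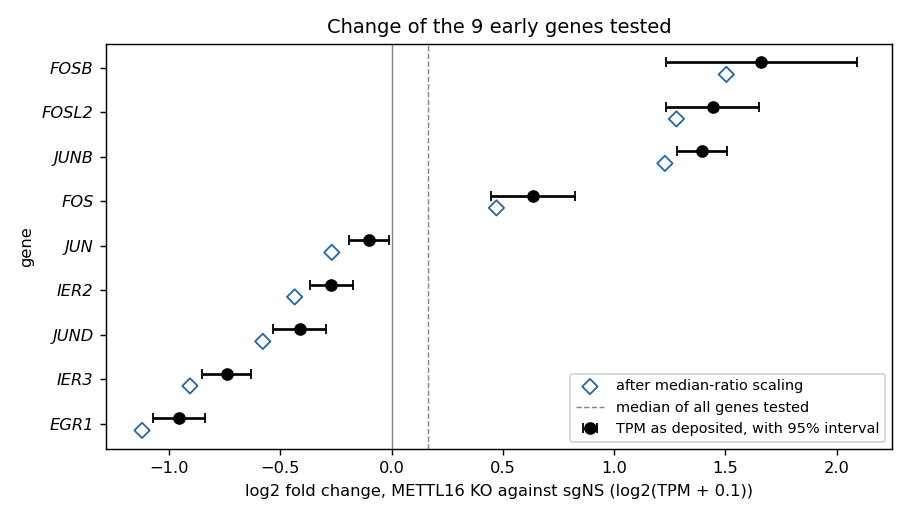
Log2 fold change of METTL16 KO against sgNS for the 9 genes tested, with the 95% interval from limma as black bars, the value after median-ratio scaling as open diamonds, and the median of all genes tested as a dashed line. FOSB, FOSL2, JUNB and FOS lay to the right of 0 and the other 5 genes to the left, under both scalings.

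Since TPM is a value per length, the members of a family can be summed within a library. The FOS family summed to 13.6 and 12.9 TPM in sgNS and to 28.7 and 27.3 TPM in METTL16 KO, a ratio of means of 2.11. The JUN family summed to 483 and 440.1 TPM in sgNS and to 437 and 459 TPM in METTL16 KO, so that these groups overlapped, with a ratio of means of 0.97. After median-ratio scaling the ratios were 1.88 for the FOS family and 0.87 for the JUN family, whose scaled sums no longer overlapped, at 510 and 468 TPM against 412 and 435 TPM. Of the summed TPM of both families, FOS members held 2.74% and 2.86% in sgNS and 6.15% and 5.61% in METTL16 KO, and JUN members held the rest. JUN mRNAs therefore remained in large excess over FOS mRNAs in each library.
Within the JUN family the makeup shifted from JUND to JUNB. JUNB made up 8.06% and 8.23% of the family's TPM in sgNS and 21.98% and 22.13% in METTL16 KO. JUND made up 55.2% and 53.1% in sgNS and 42.0% and 41.7% in METTL16 KO. JUN held 36.7% and 38.7% in sgNS and 36.0% and 36.2% in METTL16 KO, the smallest shift of the family. The ratio of JUNB to JUND, which no scaling by 1 factor per library can change, went from 0.146 and 0.155 to 0.523 and 0.531.
Within the FOS family, FOS made up 56.1% and 56.3% of the TPM in sgNS and 42.6% and 40.6% in METTL16 KO, and FOSL2 33.7% and 31.2% against 41.6% and 43.3%. FOSL2 per FOS was 0.600 and 0.555 in sgNS and 0.977 and 1.07 in METTL16 KO, so that FOSL2 reached the level of FOS. FOSB went from 6.99% and 10.7% of the family to 14.2% and 13.3%.

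**Figure D3:**
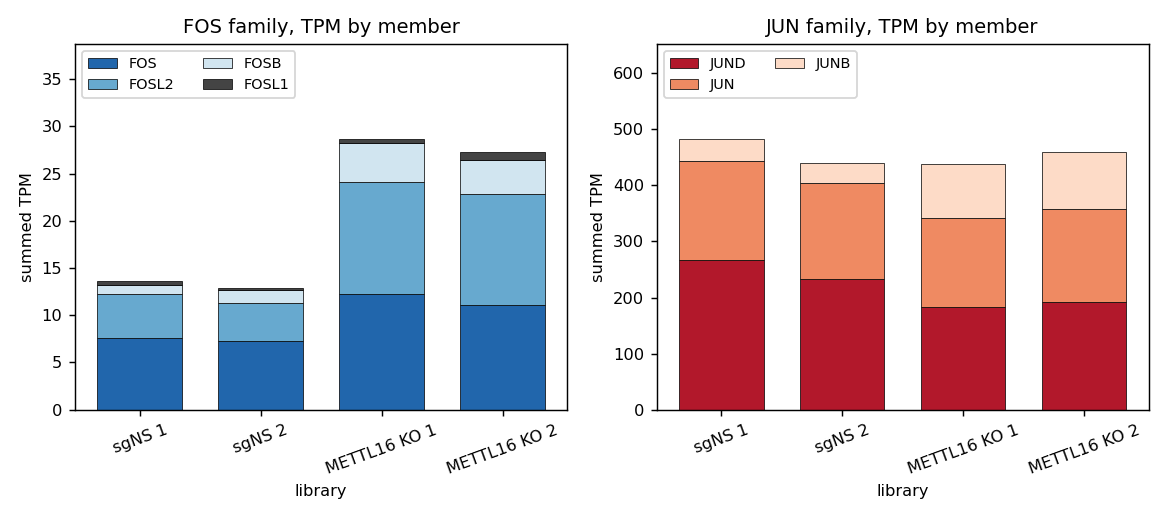
Stacked bars of TPM for the FOS family (left) and the JUN family (right) in each of the 4 libraries, with each axis starting at 0. The FOS bars rise from 13.6 and 12.9 TPM to 28.7 and 27.3 TPM, whereas the JUN bars stay between 437 and 483 TPM and hold a larger JUNB segment in METTL16 KO.

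The 3 early genes outside AP-1, chosen with earlier results of these data known, all fell, against 25.6% of all genes tested. Most of the other early response genes described below rose. EGR1, a zinc finger factor induced through SRF and its ETS partners by the ERK pathway, lies on the plus strand of chromosome 5 (138465479 to 138469303). EGR1 read 54.0 and 51.3 TPM in the sgNS libraries and 27.7 and 26.5 TPM in the METTL16 KO libraries. The METTL16 KO libraries were close to each other and far below sgNS, with a ratio of means of 0.515. Its log2 fold change was -0.96 (standard error 0.053, adjusted p = 4.5e-08 from limma) and -1.12 after median-ratio scaling. EGR1 lay at percentile 4.15 of the log2 fold changes of all genes tested.
IER3, a short protein known to be induced by NF-kB and ERK and linked to cell survival, lies on the minus strand of chromosome 6 (30743199 to 30744548). Its level was 60.9 and 65.1 TPM in the sgNS libraries but 37.8 and 37.5 TPM upon METTL16 KO, so that the METTL16 KO values were nearly the same. The ratio of means was 0.598, and the log2 fold change was -0.74 (standard error 0.050, adjusted p = 2.0e-07 from limma) and -0.91 after scaling.
IER2, a nuclear protein of the early response, lies on the plus strand of chromosome 19 (13150411 to 13154911). The sgNS libraries held 120.4 and 112.3 TPM of IER2 and the METTL16 KO libraries 97.0 and 95.8 TPM. This was a smaller change, with a log2 fold change of -0.27 (standard error 0.044), an adjusted p of 1.9e-04 from limma and a value of -0.44 after scaling.

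The order of the levels changed in its middle part. In sgNS it ran from JUND through JUN, IER2, IER3, EGR1, JUNB, FOS, FOSL2 and FOSB to FOSL1, and no neighbours in this order had overlapping libraries. In METTL16 KO it ran from JUND through JUN, JUNB, IER2, IER3, EGR1, FOSL2, FOS and FOSB to FOSL1. There the libraries of JUNB, at 96.2 and 101.6 TPM, overlapped those of IER2, at 97.0 and 95.8 TPM, and those of FOSL2 overlapped those of FOS, so that neither of these pairs differed beyond its spread. Among all genes tested, the mean of JUNB went from percentile 65.1 in sgNS to 85.3 in METTL16 KO, and that of EGR1 from 74.2 to 51.6.

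Some of the genes have features of position or structure in common, which the choice by name did not use. FOSB, JUNB, JUND and IER2 lie on chromosome 19, where FOSB and JUNB rose and JUND and IER2 fell. The share of all genes on that chromosome was not counted. In the canonical transcripts of GENCODE 44, JUN, JUNB and JUND consist of 1 exon, as do 1.83% of the 11315 tested genes with an annotated 3′ UTR, and the other members have from 2 to 4 exons against a median of 9. The AU-rich pentamer ATTTA occurs in the 3′ UTR of 9 of the 10 genes and of 73.4% of those tested genes. IER3 holds 8.14 per 1000 bases, FOS 6.2 and JUNB 4.0, against a median of 1.76. IER2 holds 0, EGR1 0.818, FOSL1 1.19, JUND 1.34, FOSB 1.38, FOSL2 1.85 and JUN 2.34 per 1000 bases. The longer form TTATTTATT occurs in FOS and FOSL2, and in 9.54% of the tested genes. Genes that rose and genes that fell thus overlapped in this measure, with IER3 and IER2, which both fell, at its ends.

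The other early response genes, transcripts known to be induced in the same wave, were mostly higher. Of 35 listed, 29 were tested, of which 25 rose and 2 fell, beside 50.1% and 25.6% of all genes tested. The median log2 fold change was 0.86 against 0.16 over all genes, and 13 of the 29 rose by at least 1 on the log2 scale, beside 7.7% of all genes. This list and those below were chosen with earlier results of these data known. NR4A3, in both the 25 and the 13, averaged 0.56 TPM in sgNS and 1.76 TPM in METTL16 KO. It passed the filter of 1 TPM only through METTL16 KO, so that its direction was set by the filter. KLF4, a zinc finger factor of epithelial cells, went from 2.02 and 1.91 TPM to 18.36 and 16.05 TPM. SOCS3, an inhibitor of cytokine signalling, went from 1.49 and 1.48 TPM to 10.7 and 11.2 TPM. TNFAIP3, a feedback inhibitor of NF-kB, and PHLDA1 rose by 2.10 and 2.04 on the log2 scale. The genes that fell were RHOB, with a log2 fold change of -0.41, and BTG2, with -0.30, while NR4A1 (15.61 and 15.46 against 15.02 and 15.81 TPM) and PLK3 did not pass. EGR1, IER2 and IER3 thus stood with RHOB and BTG2 in direction and not with most of this list. EGR2, which binds the same kind of DNA sequence as EGR1, went from 0.11 and 0.1 TPM to 0.74 and 0.33 TPM, under the limit for testing. After median-ratio scaling 25 genes of the list rose and 3 fell, with a median of 0.70, beside 36.4% and 36.5% of all genes.

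The bZIP proteins that pair with FOS or JUN were also higher in the deposited values. Of 15 listed, 13 were tested, and 12 rose, 0 fell, and ATF2 did not pass. Their median log2 fold change was 0.53 against 0.16 over all genes, of which 50.1% rose. The largest rises were in MAFA (0.18 and 0.25 against 2.04 and 1.85 TPM), BATF3, MAF and MAFK, the last of them from 13.8 and 12.7 to 28.5 and 28.1 TPM. MAFA averaged 0.215 TPM in sgNS and passed the filter of 1 TPM only through its METTL16 KO libraries. Its direction was thus set by the filter, and its place among the 12 says nothing further. BATF3 was at 2.07 and 0.95 TPM in sgNS, a wide spread, and at 3.87 and 3.75 TPM in METTL16 KO. These counts depended on scaling: with median-ratio scaling 6 of the 13 rose and 1 fell, and the median was 0.37, while 36.4% of all genes rose.

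**Figure D4:**
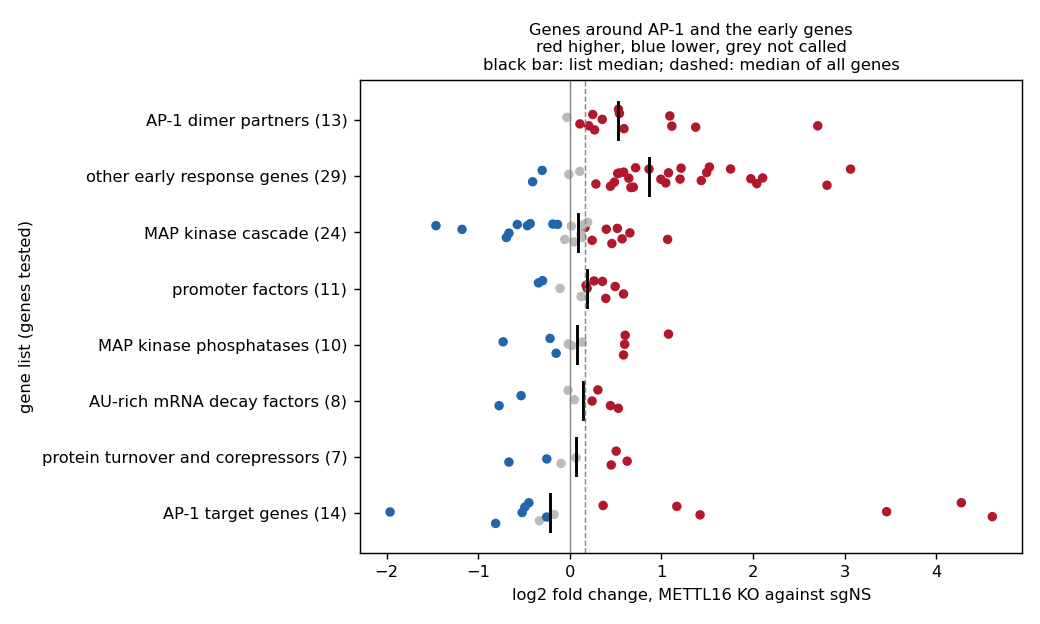
Log2 fold change of METTL16 KO against sgNS for each tested gene of the 8 lists around AP-1, with red points for genes that rose, blue for genes that fell, grey for neither, and a black bar at the list median. The points of the other early response genes lie mostly right of the dashed median of all genes, with the list median at 0.86, and those of the MAP kinase cascade lie on both sides, with a median of 0.083.

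Genes that carry the signal to these promoters did not move together. In the MAP kinase cascade, 24 of 28 genes were tested, and 9 fell and 8 rose around a median log2 fold change of 0.083. Over all genes tested, 25.6% fell and 50.1% rose. With median-ratio scaling 12 fell and 6 rose, beside 36.5% and 36.4% of all genes, and the median turned to -0.082. The largest falls were in the p38 kinase MAPK12 (-1.46), its activator MAP2K6 (-1.18), MAP2K5 (-0.69) and MAPK3, which encodes ERK1 (-0.67). The largest rises were in BRAF (1.07), RPS6KA1 (0.65), MAP2K3 (0.57) and HRAS (0.52). The MEK kinases MAP2K1 (-0.57) and MAP2K2 (-0.13), named after their values were seen, also fell. MAPK3 went from 96.0 and 94.5 TPM to 59.9 and 60.1 TPM.
Of the 11 promoter factors, all tested, 7 rose and 2 fell, beside 50.1% and 25.6% of all genes tested. Their median was 0.19, close to that of all genes. SRF, which binds the CArG box shown for EGR1, went from 22.9 and 19.7 TPM to 28.1 and 27.6 TPM, and CREB1 did not pass at a log2 fold change of -0.11. The SRF coactivator MKL1 (0.59), ELK4 (0.49) and MEF2D (0.36) rose most beside SRF (0.39), and MEF2A (-0.34) and ELK3 (-0.30) fell. With median-ratio scaling 4 rose and 3 fell, beside 36.4% and 36.5% of all genes.

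Among negative regulators the MAP kinase phosphatases moved in both directions. Of 10 tested among 11 listed, 4 rose and 3 fell, beside 50.1% and 25.6% of all genes tested, with a median of 0.076. With median-ratio scaling 4 rose and 5 fell, beside 36.4% and 36.5% of all genes, and the median turned to -0.088. DUSP1, an early gene whose product inactivates JNK, p38 and ERK, went from 105.1 and 102.0 TPM to 219.1 and 217.8 TPM. DUSP6, which is induced by ERK and inactivates it, went from 160.6 and 167.4 TPM to 100.6 and 97.2 TPM. DUSP9 (0.60), DUSP4 (0.60) and DUSP10 (0.59) rose, while DUSP7 (-0.22) and DUSP5 (-0.15) fell.
Of the 8 factors that bind AU-rich elements, 4 rose and 2 fell, beside 50.1% and 25.6% of all genes tested. These counts were near the shares of all genes. ZFP36, which recruits decay enzymes to such mRNAs, rose by 0.44 on the log2 scale, ZFP36L2 by 0.31, ZFP36L1 by 0.24 and TIAL1 by 0.53. TIA1 had a log2 fold change of -0.77 and HNRNPD of -0.53. The median of 0.14 was near that of all genes. With median-ratio scaling 3 rose and 4 fell, beside 36.4% and 36.5% of all genes, and the median was -0.021.
Of the 7 genes tested for turnover of JUN proteins or for repression of EGR1, 3 rose and 2 fell, with a median of 0.067. Over all genes tested, 50.1% rose and 25.6% fell. With median-ratio scaling 3 rose and 3 fell, beside 36.4% and 36.5% of all genes, and the median was -0.099. FBXW7 (0.63) and ITCH (0.45), ubiquitin ligases that act on JUN proteins, rose, and GSK3B (-0.25) fell. The corepressors that bind EGR proteins moved apart, with NAB1 from 33.2 and 35.5 to 21.5 and 21.7 TPM and NAB2, which EGR1 is known to induce, from 17.4 and 16.4 to 24.1 and 23.8 TPM.

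Genes known as AP-1 targets showed no common direction. Of 24 listed, 14 were tested, and 6 rose and 6 fell, beside 50.1% and 25.6% of all genes tested. Their median log2 fold change was -0.21, beside 0.16 over all genes. The rises were large in EDN1 (4.61), PLAU (4.27), CXCL8 (3.46) and HMOX1 (1.42). EDN1 averaged 0.1 TPM in sgNS and 4.735 TPM in METTL16 KO, and passed the filter of 1 TPM only through METTL16 KO. Its direction was thus set by the filter, and its fold change depends on the 0.1 added to TPM. The falls were led by SPP1, from 7.52 and 6.4 to 1.57 and 1.85 TPM, and by HMGA1, from 244.9 and 248.6 to 139.9 and 141.3 TPM, followed by MMP14 (-0.52) and TGFB1 (-0.49). The classical AP-1 targets MMP1, MMP3 and MMP10 were listed at 0 in all 4 libraries.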

How the data were processed

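RNA-seq of 2 sgNS and 2 METTL16 KO libraries was analysed. Per the methods, the authors used Cutadapt for trimming, STAR for mapping to GRCh38 and RSEM for gene values (versions not given in the sources used here). The library kit is named as one for stranded mRNA, while the labels also mention removal of ribosomal RNA. The unit is named RPKM in the methods, but each column of the deposited table adds up to 1000000, so that its values, kept to 2 decimals, were taken as TPM. Depth is unknown. Columns were matched to samples by name, and 0 columns were unmatched.

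log2(TPM + 0.1) of the 11971 genes averaging 1 TPM or more was fitted with limma 3.58.1 in R 4.3.3 (trend, no block, two-sided), with Benjamini-Hochberg adjustment over all of them. No test of a list was run. The members and lists were chosen with earlier results of these data known. All 10 members were named, and in the other lists up to 4 genes with the largest rise and the largest fall past the threshold, besides genes marked in the text, genes that did not pass, and genes named for a role there (SRF, EGR2, ZFP36L1, MMP1, MMP3 and MMP10). On simulated data for this comparison over 11971 genes, 199 of 200 genes changed by 1 on the log2 scale were recovered, and 2.45% of the calls were unchanged genes. The simulation gave genes of the same level the same spread and changed far fewer genes than were called here. Its rates therefore need not hold for these data. Alternatives were other pseudocounts (1 and 0.01), filters, scalings, no trend, a replicate block, and leaving out each library. Positions and 3′ UTRs come from GENCODE 44 (GRCh38) and promoters from RefSeq (GRCh38.p14), read with Python 3.11.15, and figures were drawn with matplotlib 3.10.9.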

Additional observations from a re-analysis of the deposited data

How the results depend on the processing

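Over 107 combinations of a tested gene and an alternative, 102 kept direction and side of the threshold. The other 5 concerned JUN: with all genes above 0 its log2 fold change was -0.10 (adjusted p = 0.086 from limma), without trend -0.10 (adjusted p = 0.15), and leaving out a library gave -0.14 to -0.064. FOSB could not be tested at a minimum mean of 5 TPM. Leaving out a library left the direction of all 9 log2 fold changes unchanged.

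Median-ratio scaling moved the ratio of the summed FOS family to 1.88 and that of the JUN family to 0.87. Leaving out a library gave 2.06 to 2.16 and 0.93 to 1.02. Under median-ratio scaling and under quantile normalization alike, 1 of 13 AP-1 dimer partners was lower and 6 higher. Likewise 4 of 11 promoter factors were higher and 5 of 10 MAP kinase phosphatases lower. Of all genes tested, 36.5% were lower and 36.4% higher under median-ratio scaling, and 35.4% and 37.1% under quantile normalization. With median-ratio scaling 4 AU-rich decay factors were lower.

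With the replicate number as a block, 5 members were lower and 4 higher, and over all genes 3112 were lower and 6048 higher against 3065 and 5999. Same-numbered libraries deviated from their group means with a correlation of -0.044 across genes, so that they share only a number. Depth is unknown, FOSL1 lay under the limit for testing, and FOSB was the lowest of the 9 tested.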
